A study of Danio rerio with 4 samples.

Results

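Leptin, interleukin-6 (IL-6) and interleukin-11 are cytokines that bind receptors linked to Janus kinases (JAKs), which phosphorylate the transcription factor STAT3. The receptors for the IL-6 family share the signalling subunit gp130, encoded by il6st, whereas the leptin receptor signals as its own dimer. STAT3 in turn induces SOCS3, a feedback inhibitor that binds JAKs and these receptors, and in the vertebrate liver it drives acute phase genes such as saa, which encodes serum amyloid A. In mammals the IL-6 family acts on blood stem and progenitor cells and on their inflammatory output.

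The genes described here are 10 symbols chosen by role: the ligands lepb, il11a and il11b, the receptors lepr, il6r and il6st, stat3, the feedback genes socs3a and socs3b, and saa. Of these, 9 matched a row among the 30838 rows of the deposited table, and il11b did not. The 10 symbols were proposed with the differences between mutant and sibling libraries known, so the members' values below describe these libraries and no p-value is attached to them. Expression was measured in 2 libraries from smu07 mutant larvae and 2 from their siblings, all of the AB zebrafish strain, reared at 28 °C without further treatment and taken at 4 days post fertilization. Per the labels, cells with low cd41:eGFP fluorescence were sorted from dissociated larvae, which is how hematopoietic stem and progenitor cells were gated, and about 500 cells entered each amplified library. The series title names slc20a1b, a phosphate transporter gene. The labels give the reference genotype only as sibling, while the design text speaks of wild type, and whether heterozygotes were included is not stated. The kind of lesion in smu07, and whether the libraries came from separate clutches or sorts, are not stated either, so the errors below describe how these samples vary, and that variation may be technical only.

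Values are TPM, a transcript level corrected for gene length, with an equal total for every library. Ratios between libraries gave the whole reads behind the TPM. The mutant libraries held 28274159 and 29948311 such reads, against 25102929 and 26598602 for the siblings. Of 8 progenitor markers 1, runx1, rose and 4 fell at a limma adjusted p under 0.05. Of all genes tested, 9.91% rose and 18.6% fell. The genes myb, gata2b, tal1, lmo2, meis1b and gfi1b were all present as well, whereas gfi1aa was low, at 0.459 and 0.838 TPM in mutant libraries and 4.65 and 2.37 TPM in sibling libraries. The most abundant was lmo2, at 105 and 122 TPM in mutant libraries and 159 and 165 TPM in sibling libraries. A change in the number of cells of a type and a change in RNA per cell cannot be told apart in such sorted bulk samples.

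The members divided by direction. The ligand genes lepb and il11a, the receptor gene il6r, the feedback gene socs3a and saa were higher in the mutant libraries, whereas stat3 was lower. The shared subunit gene il6st and the second feedback gene socs3b had lower values in the mutants without passing the threshold, and lepr was almost undetected in all 4 libraries. Of the 8 members with a mean of at least 1 TPM, 5 were called higher and 1 lower at a limma adjusted p under 0.05 over all genes. Over the 12073 genes of the same fit, the share called was 9.91% for higher, 18.6% for lower and 28.5% for either. Lower calls made up 65.3% of all calls, against 54.2% under median-of-ratios scaling and 51.1% under quantile normalization. The libraries of the groups did not overlap for any of these 8 members, nor for 70% of all genes tested. Because the members were proposed from this contrast, nothing is read from these counts.

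**Figure D1:**
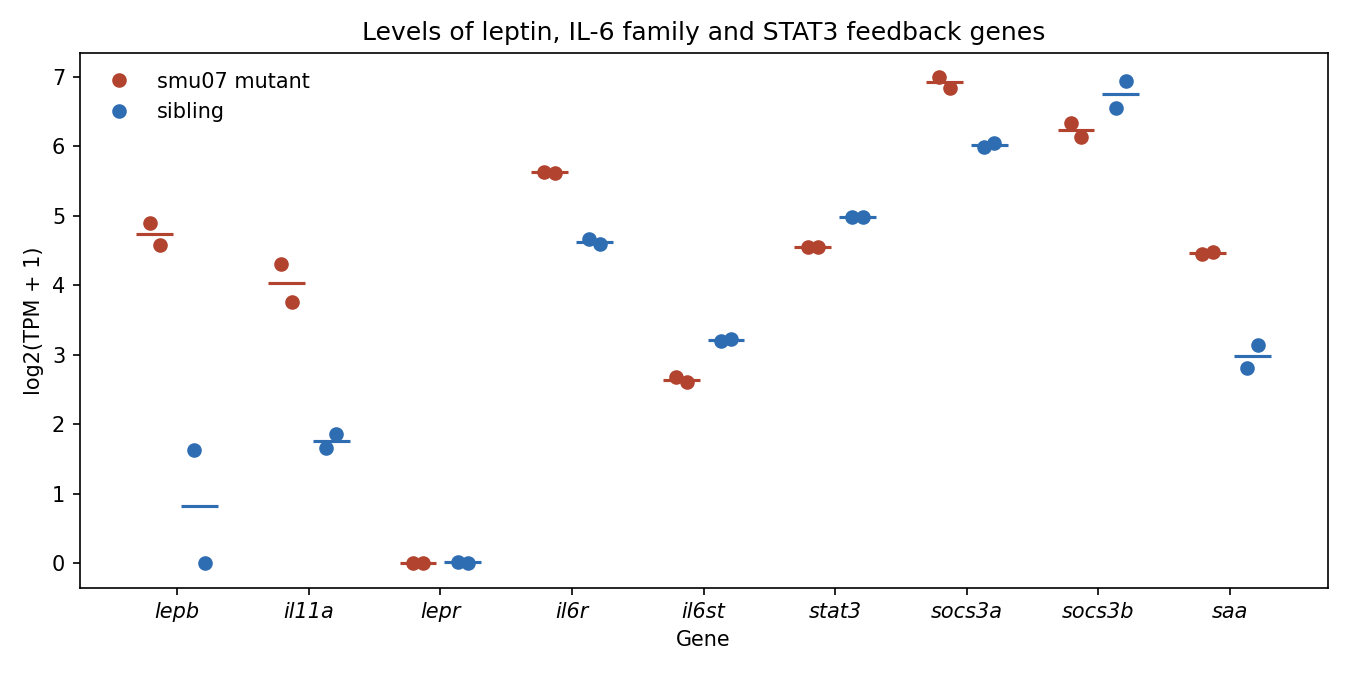
Level of each member as log2(TPM + 1), with 1 point per library, smu07 mutant libraries in red left of sibling libraries in blue and a bar at each group's mean. The mutant libraries lie above the siblings for lepb, il11a, il6r, socs3a and saa and below them for il6st, stat3 and socs3b, while lepr sits at the bottom in both groups.

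Among the ligands, lepb encodes one of 2 zebrafish leptins and stood at 28.8 and 23.0 TPM in the mutant libraries, against 2.1 and 0 TPM in the sibling libraries. These levels rested on 372 and 313 reads in the mutants and on 23 and 0 reads in the siblings. Both mutant libraries were therefore far above both siblings, and the lowest mutant value was 10.9 times the highest sibling value. At 0 reads, up to 3 reads could have been missed by chance, which allows 0.262 TPM in sibling replicate 2, and this limit covers counting error only. The difference on the log2(TPM + 1) scale was 3.92 (SE 0.51, n = 2 per group). Its size depends on the added constant, because 1 sibling library was at 0, and it was 5.78 with a constant of 0.1 TPM and 6.51 with voom on the recovered reads. The paralog lepa, which encodes the other leptin, lay at 0.435 and 0.651 TPM in mutant libraries and at 0.0428 and 0 TPM in sibling libraries, below the level required for the test. Within a library lepb was 66.3 and 35.2 times as abundant as lepa in the mutants and 49.2 times in sibling replicate 1, the sibling where both were detected. The lepa reads behind these ratios were only 12 and 19 in the mutants and 1 in that sibling. The sibling ratio thus rests on a single lepa read and cannot be compared with the others.

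The other matched ligand gene, il11a, encodes interleukin-11, a cytokine of the gp130 family. It measured 18.7 and 12.6 TPM in mutant libraries and 2.15 and 2.63 TPM in sibling libraries, from 1386 and 985 reads and from 135 and 173 reads. The groups were well separated although the mutant libraries differed from each other more than the siblings did. The ratio of the means was 6.54, and over the possible pairs of a mutant and a sibling library the ratio ran between 4.78 and 8.70. The log2 difference was 2.27 (SE 0.23). A separate row carries the symbol il11, and neither gene name table used here pairs it with il11b, so it is not counted as a member. It is mentioned because of its level, which was seen first: 122 and 131 TPM in mutant libraries and 138 and 162 TPM in sibling libraries. That row did not pass the test (log2 difference -0.24, SE 0.11, limma adjusted p = 0.156), and il11a amounted to 0.154 and 0.0960 of its level in the mutants and to 0.0156 and 0.0162 of it in the siblings.

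The receptor genes behaved unlike one another. The leptin receptor gene lepr was listed at 0 and 0.00696 TPM in mutant libraries and at 0.0174 and 0 TPM in sibling libraries, which corresponds to 0 and 2 reads in the mutants and 4 and 0 in the siblings. No difference was detectable at this depth. The receptor gene for interleukin-11, il11ra, was also scarce, at 0.0830 and 0.173 TPM in mutant libraries and 0.137 and 0.318 TPM in sibling libraries. The transcripts of the ligand-specific receptors for leptin and interleukin-11 were thus near the floor in the sorted cells of both groups.

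In contrast, il6r, which encodes the ligand-binding subunit for IL-6, was readily measured. Its level was 48.4 and 48.2 TPM in mutant libraries and 24.4 and 23.1 TPM in sibling libraries, from 4057 and 4272 reads and from 1735 and 1718 reads. The 2 libraries of each group nearly coincided, and the log2 difference was 0.99 (SE 0.12). The ratio of the means was 2.03, with all pairs between 1.97 and 2.1.

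The signalling subunit gene il6st stood at 5.42 and 5.07 TPM in mutant libraries and at 8.13 and 8.32 TPM in sibling libraries. These values rested on 341 and 337 reads in the mutants and 433 and 464 in the siblings, and the groups did not overlap. The log2 difference was -0.56 (SE 0.17), just outside the threshold. It passed under 5 of 13 alternatives, and under all 13 its value stayed between -0.64 and -0.47. Within each library il6r was 8.91 and 9.50 times as abundant as il6st in the mutants, against 3.00 and 2.77 times in the siblings. The receptor pair was therefore more uneven in both mutant libraries than in either sibling library.

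The transcription factor gene stat3 fell to 22.3 TPM in both mutant libraries, against 30.7 TPM in both sibling libraries (2820 and 2981 reads, against 3288 and 3442). The members of each pair were closer together than for any other member called, and the log2 difference was -0.44 (SE 0.12). This is the least firm of the calls. It was lost under 7 of 13 alternatives, with a log2 difference of -0.35 under median-of-ratios scaling and -0.23 under quantile normalization, and its direction was negative under all 13.

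Of the 2 SOCS3 paralogs, socs3a rose and socs3b did not pass. The level of socs3a was 126 and 114 TPM in mutant libraries and 62.4 and 64.8 TPM in sibling libraries, with 5110 and 4873 reads and 2140 and 2327 reads. The groups did not overlap, and the log2 difference was 0.90 (SE 0.11). For socs3b the values were 79.6 and 68.9 TPM in mutant libraries and 93.1 and 122 TPM in sibling libraries. These groups did not overlap either, but the siblings lay far apart, and the log2 difference of -0.52 (SE 0.16) did not pass. Without sibling replicate 1 it was -0.71 and passed, and without sibling replicate 2 it was -0.33. Whether reads matching both paralogs were counted, and how, is not given in the sources used here.

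Which paralog predominated differed between the groups. In the mutant libraries socs3a made up 61.3 and 62.3% of the summed SOCS3 transcript level, against 40.1 and 34.7% in the sibling libraries. The sum of both paralogs was 206 and 183 TPM in mutant libraries and 155 and 187 TPM in sibling libraries, so the groups overlapped in the total. Relative to stat3 in the same library, socs3a was 5.66 and 5.10 times as abundant in the mutants and 2.03 and 2.11 times in the siblings. The ratio of socs3b to stat3 was 3.57 and 3.09 in the mutants and 3.03 and 3.97 in the siblings, and these ranges overlapped.

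**Figure D2:**
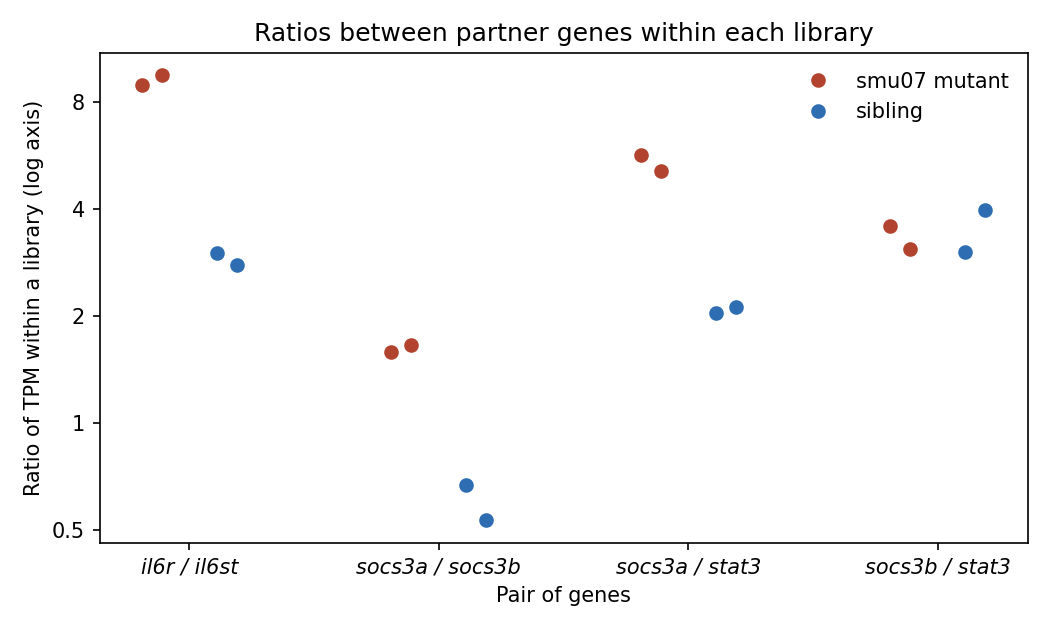
Ratio of the TPM of 2 genes within each library on a log axis, with 1 point per library, smu07 mutant in red left of sibling in blue. The ratios il6r to il6st, socs3a to socs3b and socs3a to stat3 are higher in both mutant libraries than in either sibling library, and those of socs3b to stat3 overlap.

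The acute phase gene saa measured 20.8 and 21.4 TPM in mutant libraries and 6.01 and 7.84 TPM in sibling libraries. The read numbers were modest, at 278 and 302 in the mutants and 68 and 93 in the siblings. Every mutant value was at least 2.65 times every sibling value, and the log2 difference was 1.49 (SE 0.17).

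The order of levels also differed. In the mutant libraries it ran socs3a, socs3b, il6r, lepb, stat3, saa, il11a, il6st and lepr, with means of 120, 74.3, 48.3, 25.9, 22.3, 21.1, 15.6, 5.25 and 0.00348 TPM. There lepb and stat3 did not differ beyond their spread. In the sibling libraries the order was socs3b, socs3a, stat3, il6r, il6st, saa, il11a, lepb and lepr, with means of 107, 63.6, 30.7, 23.7, 8.22, 6.92, 2.39, 1.05 and 0.00869 TPM. There il11a did not differ from lepb beyond their spread, nor lepb from lepr, and the gap of 1.30 TPM between il6st and saa was about as wide as the larger SD. Among all rows above 0 TPM in its group, lepb exceeded 88.8% in the mutants and 47.5% in the siblings, and il11a exceeded 84.2 and 57.5%. More genes were above 0 in each mutant library than in either sibling library, so these shares rest on different sets of rows.

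**Figure D3:**
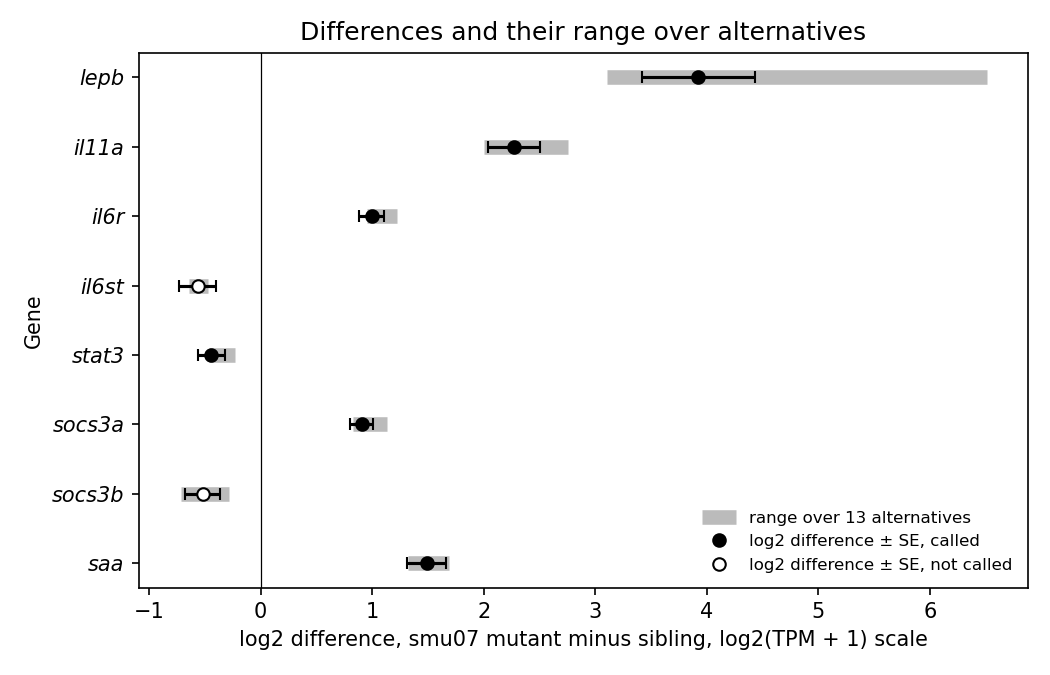
Log2 difference of each tested member, smu07 mutant minus sibling, on the log2(TPM + 1) scale, as a point with its standard error; filled points passed the threshold over all genes and grey bars show the range over 13 alternatives. No bar crosses 0, and the widest is that of lepb, between 3.11 and 6.51.

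The calls rested on both mutant libraries. When mutant replicate 1 or mutant replicate 2 was left out, the members lost their calls, as did nearly all genes called. Only 1 mutant library then remained, so effect sizes alone are given for the 5 higher members. In that order of omission, the log2 differences were 3.77 and 4.08 for lepb and 2.005 and 2.54 for il11a. They were 0.992 and 0.997 for il6r, 0.831 and 0.978 for socs3a, and 1.51 and 1.47 for saa. Under the other 11 alternatives, including voom on the recovered reads, all 5 higher members passed.

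Other genes of the pathway were grouped by role in 5 lists, of which 102 of 116 genes had a row and 62 could be tested. Of these 62, 5 were higher and 16 lower, with a median log2 difference of -0.25, against a median of -0.14 over all genes tested. The shares over all genes tested were 9.91% higher and 18.6% lower, and the counts of each list below stand beside these. Without mutant replicate 1 or mutant replicate 2 the calls of these lists were lost, as were nearly all calls over all genes. With no filter on low values, cntfr, ptpn11b, pias2, ptpn2a, socs6b, stat6 and cebpb of the genes below also lost their calls, as did ptpn2a with voom and socs6b under both other scalings. The first list held the remaining ligands, receptors, JAKs and SHP2 phosphatases. Of its 14 tested genes 2 rose and 2 fell, and 10 did not pass, with a median of 0.03. Among the called genes, cntf had a sibling mean of 0.734 TPM and crlf1a a mutant mean of 0.438 TPM. Each thus passed the filter only through the group where it was high, so these counts were partly set by the filter.

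The receptor gene cntfr, which encodes the ciliary neurotrophic factor receptor, rose to 5.94 and 7.45 TPM in mutant libraries, against 3.50 and 2.34 TPM in sibling libraries (log2 difference 0.98, SE 0.23, limma adjusted p = 0.0278). Its ligand gene cntf was barely past the threshold, at 2.52 and 1.79 TPM in mutant libraries and 0.545 and 0.922 TPM in sibling libraries (log2 difference 0.86, limma adjusted p = 0.0496), and lost its call under 7 of 12 alternatives. The soluble receptor gene crlf1a fell to 0.409 and 0.468 TPM in mutant libraries, against 2.41 and 2.48 TPM in sibling libraries (log2 difference -1.26, limma adjusted p = 0.0128). The SHP2 phosphatase gene ptpn11b fell as well, by 0.89 on the log2 scale (limma adjusted p = 0.0313). The most abundant gene of this list was m17, a fish cytokine gene of the IL-6 family, at 68.0 and 58.6 TPM in mutant libraries and 60.9 and 29.2 TPM in sibling libraries. It did not pass (limma adjusted p = 0.226), and neither did il6 itself, at 44.9 and 26.4 TPM in mutant libraries and 18.9 and 35.9 TPM in sibling libraries. For both cytokines the groups overlapped. Without sibling replicate 1 m17 had a log2 difference of 1.08 and passed, and without sibling replicate 2 il6 had one of 0.83 and passed, while without sibling replicate 1 that of il6 was -0.06. Of the kinase genes, jak1 and tyk2 had log2 differences of 0.02 and 0.04, and jak2a and jak2b of -0.24 and -0.33, none of which passed.

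No inhibitor gene tested outside the SOCS3 pair was called higher. Of 12 tested SOCS, PIAS and phosphatase genes 5 fell and 0 rose in limma, with 0 rising at an unadjusted p under 0.05 and 0 with voom. Their median log2 difference was -0.56. Over all genes tested 9.91% were called higher and 18.6% lower. At an unadjusted p under 0.05, 1821 of the 12073 were higher, and with voom 1519 were. Of the 21 such inhibitor genes with a row, 9 lay below a mean of 1 TPM. Among these, socs4, socs9 and pias4b were higher in both mutant libraries than in either sibling, and socs5b and pias1b were lower. Reads were few for pias4b, at 5 and 1 against 0 in both siblings, and socs4, at 17 and 23 against 0 and 9. For pias1b the reads overlapped, at 21 and 37 against 33 and 33. The 70% without overlap covers tested genes only, and no share was computed below 1 TPM. More genes were above 0 in mutant libraries, 23881 and 23978, than in sibling libraries, 19528 and 19811. The phosphatase gene ptpn1, whose product dephosphorylates JAK2 in mammals, fell to 40.6 and 38.2 TPM in mutant libraries, against 77.8 and 73.9 TPM in sibling libraries (log2 difference -0.93, SE 0.11, limma adjusted p = 0.00638). The phosphatase gene ptpn6, which encodes SHP1, a brake of cytokine receptors in blood cells, stood at 38.4 and 38.1 TPM in mutant libraries and 72.0 and 68.6 TPM in sibling libraries (log2 difference -0.86, SE 0.11, limma adjusted p = 0.00696). In both cases the libraries of a group lay close together and the groups were far apart. The other called genes were pias2, ptpn2a and socs6b, lower by 1.02, 0.84 and 0.68 on the log2 scale (limma adjusted p = 0.0226, 0.0290 and 0.0366). The SOCS gene socs1a, at 20.2 and 20.9 TPM in mutant libraries and 22.6 and 16.6 TPM in sibling libraries, overlapped between the groups. The STAT5 feedback gene cish had a log2 difference of -0.69 and narrowly missed the threshold (limma adjusted p = 0.0520).

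Among the other STAT genes 2 of 5 tested fell and 0 rose in limma, and the median was -0.52. The shares over all genes tested were 18.6% lower and 9.91% higher. At an unadjusted p under 0.05 and with voom 0 rose as well, against 1821 and 1519 over all genes tested. Below a mean of 1 TPM, stat1b and stat2 were higher in both mutant libraries than in either sibling. These rested on 110 and 50 reads against 25 and 4 for stat1b, and 21 and 24 against 15 and 10 for stat2. The share of such cases among all genes at that level was not computed. The interferon pathway factor stat1a was the most abundant, at 41.6 and 39.2 TPM in mutant libraries and 60.3 and 56.7 TPM in sibling libraries (log2 difference -0.52, SE 0.11, limma adjusted p = 0.0213). The interleukin-4 and interleukin-13 pathway factor stat6 fell by 0.66 (limma adjusted p = 0.0321). Like stat3, stat1a lost its call under quantile normalization, at -0.28, and so did stat6, at -0.54.

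Of the acute phase genes other than saa, 18 of 22 with a row lay below a mean of 1 TPM, among them the fibrinogen genes fga, fgb and fgg and the haptoglobin gene hp. Of those below that level cp, tfa, crp3 and itln3, among others, were higher in both mutant libraries than in either sibling. In contrast, fga, fgb and hpx were highest in sibling replicate 2. Reads were few for crp3, at 8 and 4, and itln3, at 10 and 5, against 0 in both siblings. The share of such cases among all genes at that level was not computed. None of the 4 tested genes passed in limma or with voom, and 1 was higher at an unadjusted p under 0.05. Of all genes tested, 28.5% passed in limma, and 1821 of the 12073 were higher at an unadjusted p under 0.05. The most abundant, lect2l, stood at 81.1 and 96.3 TPM in mutant libraries and 87.6 and 57.6 TPM in sibling libraries. The hepcidin gene hamp, a textbook target of IL-6 and STAT3 in liver, read 9.71 and 9.57 TPM in mutant libraries and 8.88 and 28.7 TPM in sibling libraries. The high value in sibling replicate 2 made the groups overlap. The tested genes itln1 and crp4 were higher in both mutant libraries without overlap. For itln1 the values were 6.67 and 12.2 TPM in mutant libraries and 1.09 and 5.69 TPM in sibling libraries. Those of crp4 were 2.20 and 1.75 TPM in mutant libraries and 0.963 and 1.48 TPM in sibling libraries.

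Genes known in mammals as STAT3 targets went both ways. Of 27 tested, 3 rose, 7 fell and 17 did not pass, with a median of -0.21. With voom 7 of the 27 were higher and 7 lower, against 1519 higher and 2009 lower over all genes. Over all genes tested 9.91% were called higher and 18.6% lower in limma, with a median of -0.14. The gelatinase gene mmp9 rose to 254 and 302 TPM in mutant libraries, against 29.5 and 51.7 TPM in sibling libraries (log2 difference 2.79, SE 0.26, limma adjusted p = 0.00404). It is also a neutrophil marker. The NF-kB cofactor gene bcl3 rose to 26.1 and 23.2 TPM, against 10.8 and 12.2 TPM in sibling libraries (log2 difference 1.04, SE 0.15, limma adjusted p = 0.00883). On the other side, the survival kinase gene pim2 fell to 366 and 354 TPM, against 619 and 613 TPM in sibling libraries (log2 difference -0.77, SE 0.08, limma adjusted p = 0.00469). The anti-apoptotic gene bcl2l1 fell to 44.7 and 46.5 TPM, against 78.2 and 101 TPM in sibling libraries (log2 difference -0.95, limma adjusted p = 0.0101). The transcription factor gene cebpb, the most abundant of the list, fell by 0.34 (limma adjusted p = 0.0220) and lost its call under 7 of 13 alternatives. The list thus held called genes in both directions, as the whole set of tested genes did.

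**Figure D4:**
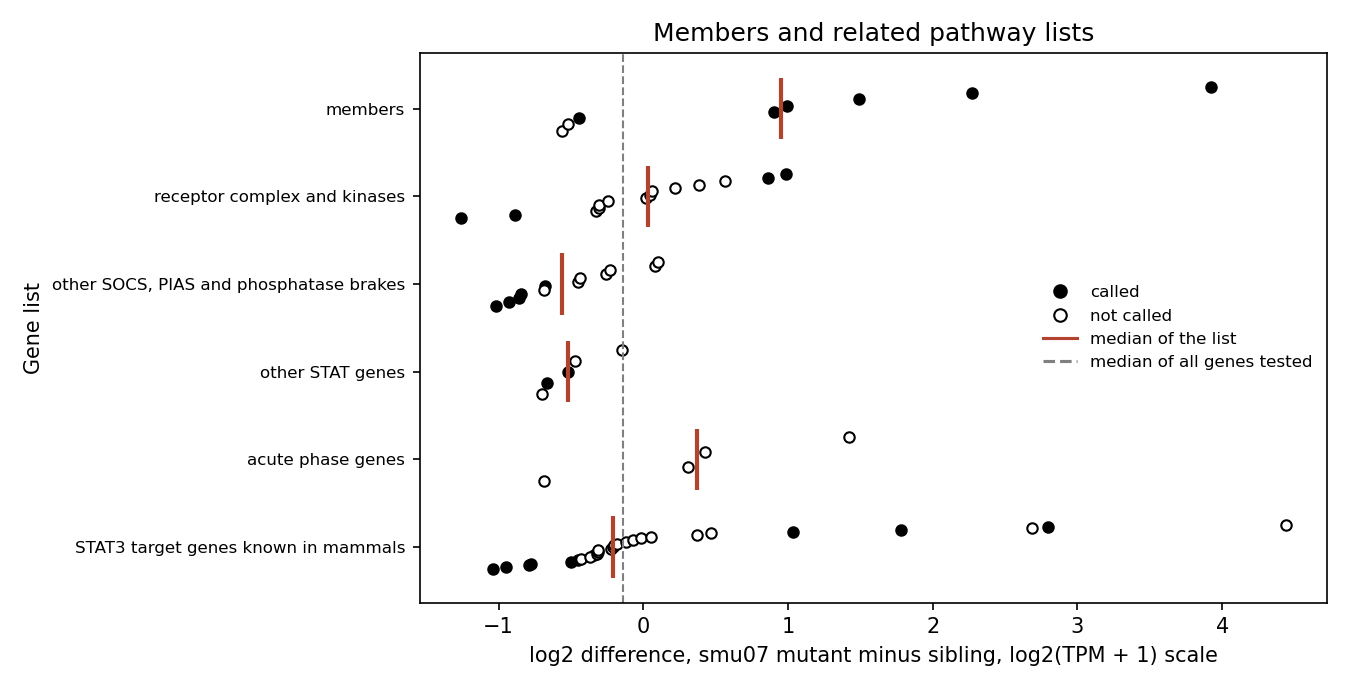
Log2 difference of each tested gene, smu07 mutant minus sibling, in rows for the members and the 5 pathway lists; filled points passed the threshold, red bars mark each list's median and the dashed line the median of all genes tested, -0.14. The inhibitor and STAT lists lie mostly left of the dashed line, with medians of -0.56 and -0.52, and the STAT3 target list spreads to both sides.

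Markers of cell types that a larval sort could also hold moved in both directions, depending on the cell type. Beside the counts below, 9.91% of all genes tested were called higher and 18.6% lower in limma. At an unadjusted p under 0.05, 1821 of the 12073 were higher and 3417 lower. Of 11 tested macrophage markers 7 rose and 0 fell in limma, with 8 higher and 1 lower at an unadjusted p under 0.05. Against the list, cd74a was lower in both mutant libraries, at 21.7 and 22.8 TPM against 56.8 and 29.4 TPM in sibling libraries. So was grn1, at 1.49 and 0.970 TPM against 1.72 and 3.57 TPM in sibling libraries. The summed level of the list was 1674 and 1564 TPM in mutant libraries and 848 and 917 TPM in sibling libraries. The most abundant, lygl1, did not pass, at 632 and 569 TPM in mutant libraries and 318 and 504 TPM in sibling libraries. In the same list c1qa and c1qc were at 0 in all 4 libraries and mpeg1.1 was at 0.0455 and 0.0344 TPM in mutant libraries and 0 in both siblings. Of 8 neutrophil markers 3 rose and 1 fell, with sums of 1124 and 1356 TPM in mutant libraries and 806 and 558 TPM in sibling libraries. The most abundant, npsn, did not pass (limma adjusted p = 0.0693). The untested marker lyz was low and overlapped, at 0.407 and 0.565 TPM in mutant libraries and 0.866 and 0.551 TPM in sibling libraries. All 7 tested keratinocyte markers rose, with sums of 274 and 177 TPM against 44.2 and 35.4 TPM in sibling libraries. Most of it was icn, at 179 and 113 TPM against 43.2 and 27.6 TPM in sibling libraries. However, krt4, krt91, krt17, cyt1 and cyt1l had sibling means below 1 TPM. They passed the filter only through the mutant libraries, so that count was partly set by the filter. The untested tp63 overlapped, at 0.321 and 0.289 TPM in mutant libraries and 0.123 and 0.461 TPM in sibling libraries. The keratin gene krt91 was at 0 in both siblings and epcam at 0 in all libraries. Hepatocyte markers summed to 14.1 and 10.03 TPM in mutant libraries and 2.27 and 2.79 TPM in sibling libraries. Most of this was rbp4, at 10.7 and 6.15 TPM in mutant libraries and 1.18 and 1.88 TPM in sibling libraries. Of that list rbp4 alone reached the test. The liver gene fabp10a was at 0.758 and 0.819 TPM in mutant libraries, from 7 and 8 reads, and 0 in both siblings. In this list ttr went the other way, at 0 and 0.0569 TPM in mutant libraries and 0.568 and 0.339 TPM in sibling libraries. It also rested on few reads, and hp was at or near 0. Thrombocyte and erythroid markers were mostly lower, with 5 of 7 and 6 of 6 tested genes falling and 1 thrombocyte gene, thbs1b, rising. The untested erythroid genes gata1a and alas2 were at or near 0 in all 4 libraries. Among those falling was itga2b, the cd41 gene whose reporter defined the sort. It read 23.5 and 19.3 TPM in mutant libraries and 50.8 and 66.9 TPM in sibling libraries (log2 difference -1.41, limma adjusted p = 0.00703). Whether the gate took equivalent cells from both groups was not tested. For the thrombocyte and erythroid lists the most abundant genes are given next. Their most abundant genes were blf, at 555 and 755 TPM in mutant libraries and 1637 and 1414 TPM in sibling libraries, and the globin gene hbbe1.1, at 76.9 and 128 TPM in mutant libraries and 768 and 231 TPM in sibling libraries. Of 5 lymphoid markers 4 fell, while the most abundant, ccr9a, did not pass, at 810 and 777 TPM in mutant libraries and 731 and 569 TPM in sibling libraries. Fibroblast markers rose in 3 of 4 cases, col1a1b and sparc by 1.69 and 1.71 on the log2 scale and col1a2 to 7.93 and 4.31 TPM in mutant libraries, against 0 in both siblings. These 3 had sibling means below 1 TPM and also passed the filter only through the mutant libraries. The gene col1a1a was at 0 in all libraries. Their summed level overlapped between the groups, at 22.2 and 14.1 TPM in mutant libraries and 1.81 and 23.8 TPM in sibling libraries, since twist1a read 23.0 TPM in sibling replicate 2. Endothelial markers rose in 2 cases, pecam1 and stab1, and fell in 2 of 5, sele and aqp1a.1. Of 4 muscle markers 1 rose, tpma. The sibling means of stab1 and tpma were 0.917 and 0.202 TPM, so both also passed the filter only through the mutant libraries. The untested endothelial genes kdrl and cdh5 were at or near 0 in all 4 libraries. The most abundant genes of these lists, fli1a and actc1b, did not pass. The part of these cell types in the differences of lepb, il11a, il6r, stat3, socs3a and saa was not tested.

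The genes closest to the 3 members with the largest called differences were found by the distance between centred log2(TPM + 1) profiles over the 4 libraries. For il11a the nearest were hey2, which encodes a transcriptional repressor of the Notch pathway, at a distance of 0.116, and zgc:193725 at 0.259. The level of hey2 was 51.3 and 38.0 TPM in mutant libraries and 8.34 and 9.38 TPM in sibling libraries. For saa they were qkib, an RNA-binding protein gene, at 0.0692, and mcoln3a, a lysosomal cation channel gene, at 0.0785. For lepb they were LOC103908620 and LOC100536946, at 0.631 and 0.798, so among the genes searched, those with a mean of at least 5 TPM, none lay as close to lepb as others did to saa. All of these genes were themselves called higher in the mutant libraries, which follows from choosing them by their likeness to members called higher.

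The protein-coding genes next to each member in the RefSeq annotation of GRCz12tu, 18 in all, were also examined, and this check was chosen after the data were seen. Of the 7 that could be tested, 0 were called in limma, against 28.5% of all genes tested. One of them is stat5a, the neighbour of stat3, at 0.990 and 0.805 TPM in mutant libraries and 1.27 and 0.949 TPM in sibling libraries (log2 difference -0.15, limma adjusted p = 0.652).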

How the data were processed

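The authors deposited 1 table of TPM values with 1 column for each of the 4 libraries. The GRCz11 build and the tools STAR, featureCounts, FastQC and DESeq2 are named in the submitters' processing notes; the sources used here give no version or annotation. All 12073 genes averaging 1 TPM or more were fitted on the log2(TPM + 1) scale in R 4.3.3 with limma 3.58.1 (mean-variance trend, mutant against sibling as the only term), and called at a Benjamini-Hochberg adjusted p under 0.05. This scale understates the change of low genes, and TPM fixes each library's total, so a rise of abundant genes lowers the others. Genes with a mean below 1 TPM in 1 group, such as cntf, crlf1a and gfi1aa, entered the fit only through the other group. Errors are SE from the model, with n = 2 per group.

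Whole reads were recovered for 23927 of 23927 rows above 0 in at least 2 libraries (tolerance 0.0001); 2178 rows above 0 in 1 library were not solved. Reads of amplified cDNA are not independent molecules. Scripts were tested on simulated data. The members, lists and tests were chosen with earlier results of these data known. Genes named are the members, the most abundant and up to 4 called genes of each pathway list, each cell type's most abundant marker and the genes nearest in profile (mean of at least 5 TPM). Others were named for their role or after their values were seen. They are lepa, il6, il11ra, the JAK genes, socs1a, socs6b, cish, hamp, itln1, crp4, stat5a, the row il11, gfi1aa, runx1, itga2b, fibroblast, endothelial and muscle genes, pathway genes below a mean of 1 TPM, and markers at or near 0 or against their list.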

Additional observations from a re-analysis of the deposited data

How the results depend on the processing

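Over 13 alternatives, lepb, il11a, il6r, socs3a and saa kept their direction and were called under 11, all but those without a mutant library; il6st, stat3 and socs3b kept their direction under all 13. Over all genes, 1196 were higher and 2247 lower, against 1519 and 2009 with voom. There were 778 higher with a mean of at least 5 TPM, 1124 lower with no filter on low values and 1390 lower under quantile normalization. As 1 library was left out, the counts ran from 0 to 2044 higher and from 3 to 3206 lower, with the lowest values without a mutant library. Members called lower numbered 1, against 2 with a pseudocount of 0.5 or 0.1 TPM or a mean of at least 5 TPM, and 0 with no filter, median-of-ratios scaling or quantile normalization. As 1 library was left out they ran from 0 to 3, and members called higher from 0 to 5. At an unadjusted p under 0.05, 3 members were lower with no filter or median-of-ratios scaling and 1 under quantile normalization; voom called 1. Pathway genes called higher were 5, against 3 with no filter and 9 with voom, and those lower 16, against 7 with no filter; as 1 library was left out they ran from 0 to 10 and from 0 to 21. The causes were not tested. Where a group kept 1 library, limma assumed that it varied like the other group.

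The sample numbers are shared by both groups, but nothing in the labels says that they mark a pairing, and deviations of equally numbered samples correlated at -0.046. With a replicate block 981 genes were higher and 1682 lower, 5 members were higher and 0 lower (3 lower at an unadjusted p under 0.05). The genes stat3, cntf, ptpn2a, stat6 and socs6b then missed the threshold (limma adjusted p = 0.0797, 0.0846, 0.0544, 0.0594 and 0.0627) and cish passed (0.0340). Of genes that were not called, the following changed sign as 1 library was left out: twist1a (-2.16 to 1.51), fli1a (-0.044 to 0.105), actc1b (-0.058 to 0.303), il6 (-0.057 to 0.829), jak1 (-0.0447 to 0.0825, and -0.0446 under quantile normalization), tyk2 (-0.026 to 0.115), socs1a (-0.131 to 0.291) and hamp (-1.48 to 0.106). Depth limits lepr and lepa, and lepb in the siblings.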
